A study of Mus musculus with 20 samples.

Results

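The genes of the collagen chains were measured in 2 mouse cell lines of hypothalamic neurons, by hybridising their RNA to gene arrays. The members were all genes whose single symbol on the array has the form Col, a number, a and a number, which gave 42 of the 18820 genes measured. They were split by the structures their proteins build: 11 fibrillar collagens, 6 type IV collagens of basement membranes and 25 others. The others were 8 fibril-associated, 6 beaded filament (type VI), 3 hexagonal network, 4 transmembrane and 2 multiplexin collagens, with Col26a1 and Col28a1 left unclassed. Col7a1 and Col9a3 lay on probe sets that carry a second gene's symbol and were not analysed here.

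The lines were mHypoE-46 (E46 below; Hypo-E46 in the titles), which the labels call sensitive to serotonin, and mHypoA-2/12 (A2/12 below; Hypo-A2/12), which they call unresponsive. All cells were kept 4 h without serum, and serotonin then acted for 24 h. The arrays fall into 5 groups of 4. Those of E46 were controls, cells with serotonin at a titled 100 µg/ml and cells with serotonin at a titled 1 µg/ml. The A2/12 line had controls and cells with serotonin at a titled 100 µg/ml. A second label crosses the 2 doses of the E46 serotonin arrays, so groups are called labelled 100 and labelled 1 after their titles. Each line is 1 line per phenotype, and nothing in the labels ties the 4 arrays of each group to 4 cultures, so p-values measure the spread between arrays, which may be technical.

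Collagens are secreted proteins whose chains wind into a triple helix. Fibrillar collagens pack into the fibres that give tissue its tensile strength, type IV collagens form the sheet of the basement membrane, and type VI and fibril-associated collagens link fibres to cells and to each other. In brain they are best known from the meninges, vessel walls and vascular basement membrane, and fibroblasts and mural cells are main sources.

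Values are log2 levels ± SD over 4 arrays, and changes are log2 differences ± SE between groups of 4 arrays. The threshold of a call was an adjusted p of 0.05 in limma, over all 18820 genes. A background level was set as the 95th percentile of 1157 receptor genes for odorants and pheromones, at 4.35 to 4.66 depending on the group. Of the 42 collagens, 40 lay above it in the controls of each line; Col6a4 and Col6a5 did not. The correlation between arrays lay between 0.927 and 0.995 and the upper quartile of their levels between 8.09 and 8.31, with 4 arrays under 8.2: E46 control replicate 1, E46 labelled-1 replicates 1 and 3, and A2/12 control replicate 2. A level belongs to its own probe set and was not compared between genes, apart from a split at a control level of 6. In cultured cells as in tissue, fewer cells that make a collagen and less of its RNA per cell cannot be told apart.

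In E46, 22 collagen genes fell at the labelled 100 and none rose, with 20 not called. Those that fell were 8 of 11 fibrillar collagens, 4 of 6 type IV collagens and 10 of the 25 others, and 13 of them fell by at least 2-fold. Across all genes 19.3% were called lower, 20.3% higher and 39.6% in either direction, and 4.11% were called at least 2-fold lower. In 21 collagens the serotonin group lay wholly below the controls, as in 19.4% of all genes. The median change was -0.68 in the fibrillar, -0.87 in the type IV and -0.13 in the other collagens, -0.31 over all 42 and -0.00 over all 18820 genes. Calls went with the signal: 19 of 20 collagens with a control level of at least 6 fell (95%), and 3 of 22 below it (13.6%). Over all genes these shares were 30% and 7.72%. The part of signal level in the class medians was not tested.

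In A2/12, the line called unresponsive, 24 collagens fell and none rose, again 13 of them by at least 2-fold. These were 8 of 11 fibrillar collagens, all 6 type IV collagens and 10 of the 25 others, with medians of -1.18, -0.81 and -0.12. The median over all 42 was -0.34, against 0.00 over all genes. With a control level of at least 6, 17 of 18 collagens fell (94.4%), and 7 of 24 below it (29.2%), where 33.4% and 7.8% of all genes did. The share called over all genes was 21.1% lower, 24.8% higher, 45.9% in either direction and 6.44% at least 2-fold lower. The groups did not overlap in 22 collagens that were lower (19.9% of all genes) and in 1 that was higher, Col20a1 (23.4% of all genes), whose change of 0.25 ± 0.13 was not called (adjusted p = 0.127).

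The lists of the 2 lines shared 20 collagens, which is 90.9% of the E46 list and 83.3% of the A2/12 list. Over all genes the lists were shared widely too: 2411 genes were called lower in both lines, of 3625 in E46 and 3976 in A2/12. Col14a1 and Col2a1 were called in E46 and not in A2/12, and Col10a1, Col24a1, Col4a3 and Col4a4 in A2/12 and not in E46. The other 16 were called in neither.

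The arrays carry a code of a letter and a number in a second label. The numbers 5, 7 and 9 each occur in every group, while the letters follow the order of the groups. Letters B, C and F are shared by neighbouring groups, and each other letter lies within a single group. The letters and the groups can thus be told apart only in part, and the letters entered no fit. A fit of 1 number alone held 7, 7 and 6 arrays with 2, 2 and 1 residual degrees of freedom, and at least 1 group of each serotonin comparison was then a single array, assumed to vary like the other groups of that number. The counts within a number are therefore descriptions of few arrays. Within numbers 5, 7 and 9, 16, 18 and 11 collagens were called lower in E46, where 7.89%, 11.1% and 3.48% of all genes were. The A2/12 counts were 19, 19 and 14, where 11.8%, 16.2% and 6.74% of all genes were called lower, and 1 collagen was called higher within number 7 (21.2% of all genes).

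**Figure D1:**
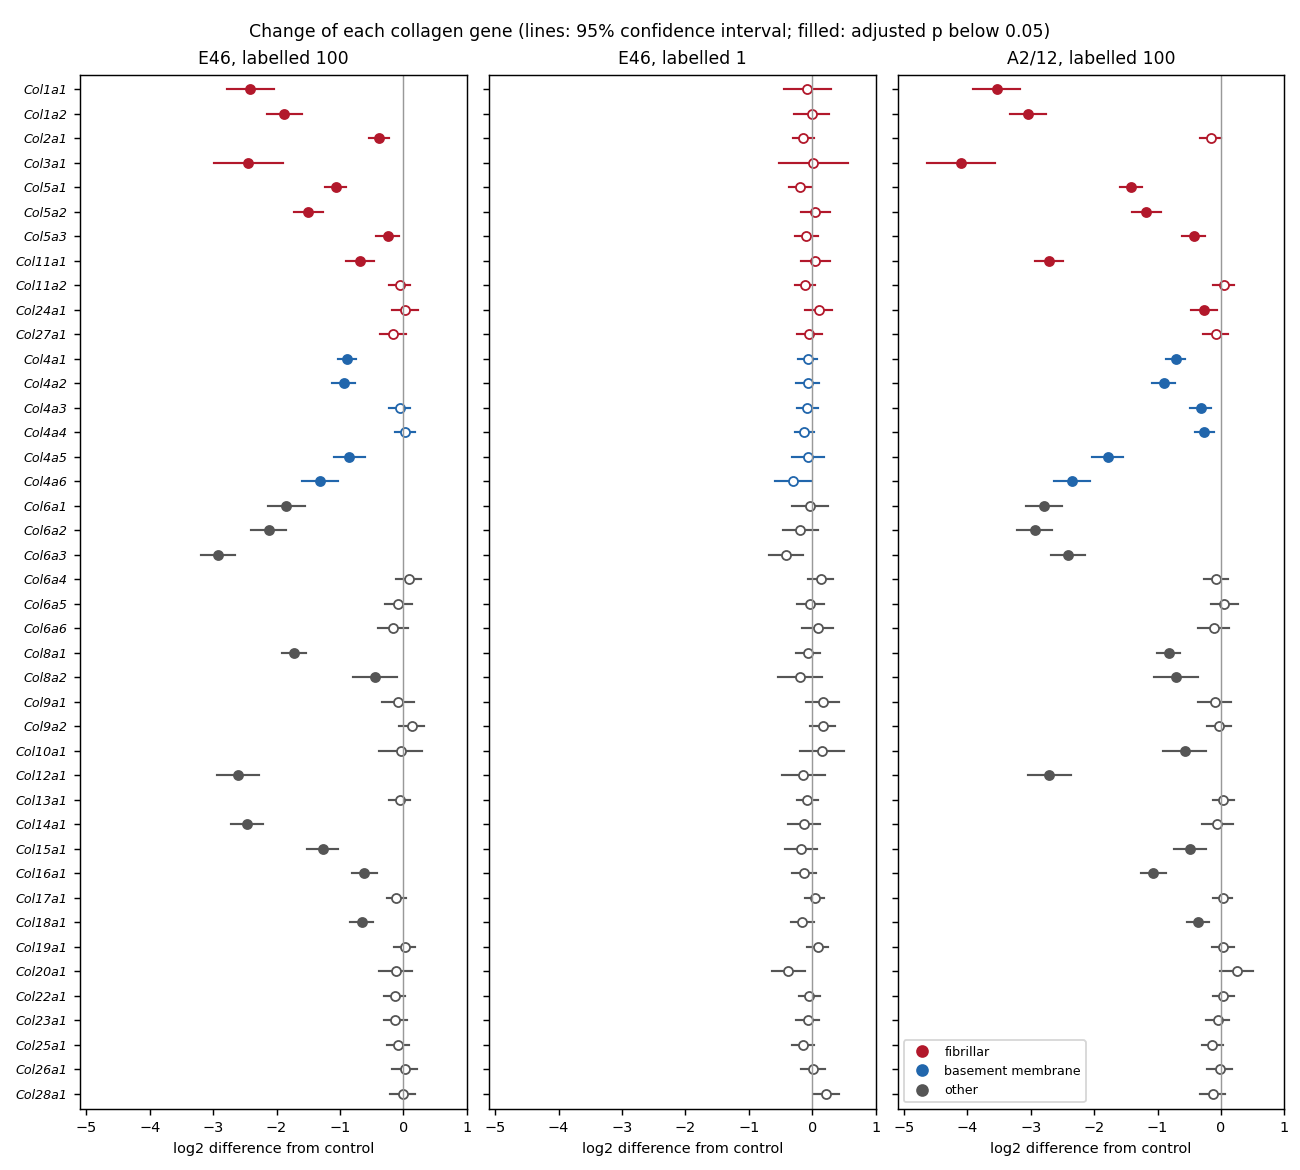
Change of each of the 42 collagen genes from control, on the log2 scale, for E46 labelled 100, E46 labelled 1 and A2/12 labelled 100. Points are differences of group means (4 arrays each), lines are 95% confidence intervals, and filled points passed an adjusted p below 0.05. Filled points in the outer panels all lie left of 0 (22 in E46 and 24 in A2/12), and the middle panel has none.

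The fibrillar collagens began with Col1a1 and Col1a2, which encode the 2 chains of type I collagen, the main collagen of fibrous tissue. Col1a1 read 11.68, 11.81, 11.63 and 11.76 on the E46 control arrays, 11.56, 11.74, 11.50 and 11.77 at the labelled 1, and 10.03, 9.02, 8.99 and 9.19 at the labelled 100. Every array labelled 100 lay below every control, with replicate 1 nearest to them. The change at the labelled 100 was -2.41 ± 0.18 (5.33-fold lower, adjusted p = 6.08e-10). In A2/12 the controls read 11.71, 11.48, 11.65 and 11.53 and the serotonin arrays 8.46, 8.06, 8.04 and 7.65, a change of -3.54 ± 0.18 (11.6-fold lower, adjusted p = 8.19e-13).

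Col1a2 read 11.26, 11.29, 11.17 and 11.36 in E46 controls, 11.16, 11.31, 11.21 and 11.37 at the labelled 1 and 9.87, 9.15, 9.15 and 9.39 at the labelled 100. The labelled 1 group overlapped the controls and the labelled 100 group lay below both, with a change of -1.88 ± 0.13 (adjusted p = 3.94e-10). The A2/12 level fell from 11.88, 11.75, 11.98 and 11.84 to 9.16, 8.85, 8.71 and 8.56, by 3.04 ± 0.13 on the log2 scale (adjusted p = 1.49e-13). Both chains of type I collagen therefore fell in both lines, with no overlap of the groups.

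Col3a1 encodes the chain of type III collagen, found beside type I in vessel walls and loose tissue. It read 9.13, 9.23, 8.95 and 9.21 in E46 controls, 9.12, 9.13, 9.17 and 9.15 at the labelled 1, and 7.54, 6.03, 6.46 and 6.68 at the labelled 100. The arrays labelled 100 spread more than the controls (SD 0.63 against 0.13) but all lay below them, and the change was -2.45 ± 0.26 (adjusted p = 1.25e-07). It went from 10.43, 10.41, 10.56 and 10.47 to 7.15, 6.69, 5.89 and 5.74 in A2/12. That change of -4.10 ± 0.26 (17.1-fold lower, adjusted p = 2.87e-11) was the lowest of the 42 collagens in that line.

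Windows of 250 bases before to 50 bases after the gene start were given by RefSeq for build GRCm38.p6 for 34 of the 42 members, and those of Col1a2 and Col3a1 are shown because both genes fell in both lines and their windows differ. Each is written 5′ to 3′ on the gene's strand. Capitals mark the CCAAT letters of the CCAAT box, the GGGCGG letters of the GC box and the TATAAA letters of the TATA box, on either strand. The Col1a2 window, chr6:4505368-4505667 on the plus strand, holds 2 CCAAT, 2 GGGCGG and 0 TATAAA, and the Col3a1 window, chr1:45311288-45311587 on the plus strand, holds 0, 0 and 1.
Col1a2: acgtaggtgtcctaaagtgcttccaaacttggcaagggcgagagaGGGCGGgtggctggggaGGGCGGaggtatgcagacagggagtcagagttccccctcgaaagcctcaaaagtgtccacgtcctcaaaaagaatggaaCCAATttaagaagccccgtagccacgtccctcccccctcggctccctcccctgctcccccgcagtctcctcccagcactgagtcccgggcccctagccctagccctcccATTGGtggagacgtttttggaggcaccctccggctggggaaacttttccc
Col3a1: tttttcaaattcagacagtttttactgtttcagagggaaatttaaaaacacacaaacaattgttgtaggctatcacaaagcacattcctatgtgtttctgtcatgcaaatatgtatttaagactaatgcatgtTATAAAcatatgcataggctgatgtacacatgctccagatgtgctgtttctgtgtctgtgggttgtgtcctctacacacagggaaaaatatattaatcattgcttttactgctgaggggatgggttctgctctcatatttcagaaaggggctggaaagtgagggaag

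Type V collagen, a minor partner inside type I fibres, is encoded by Col5a1, Col5a2 and Col5a3. Col5a1 read 7.35, 7.37, 7.21 and 7.26 in E46 controls, 6.92, 7.19, 7.03 and 7.27 at the labelled 1, and 6.29, 6.11, 6.29 and 6.20 at the labelled 100. The A2/12 arrays read 8.02, 7.72, 8.00 and 7.94 in controls and 6.53, 6.42, 6.53 and 6.50 with serotonin. The groups at the labelled 100 did not overlap their controls, and the changes were -1.07 ± 0.08 in E46 and -1.42 ± 0.08 in A2/12 (adjusted p = 1.17e-09 and 6.51e-12). A second, dimmer probe set of Col5a1 disagreed in E46, with -0.06 ± 0.11 (adjusted p = 0.708), and gave -0.34 ± 0.11 in A2/12 (adjusted p = 0.0134).

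Col5a2 read 8.32, 8.77, 8.60 and 8.56 in E46 controls, 8.51, 8.72, 8.40 and 8.80 at the labelled 1 and 7.32, 6.87, 6.97 and 7.09 at the labelled 100. Its change in E46 was -1.50 ± 0.11 (adjusted p = 5.48e-10) with no overlap. In A2/12 it went from 8.38, 8.35, 8.61 and 8.58 to 7.34, 7.20, 7.30 and 7.35, a change of -1.18 ± 0.11 (adjusted p = 9.61e-09). The third type V chain, Col5a3, moved less, by -0.25 ± 0.09 in E46 (adjusted p = 0.0300) and -0.43 ± 0.09 in A2/12 (adjusted p = 0.000312), and its E46 call was lost in 7 of 20 alternatives (adjusted p from 0.0535 to 0.137).

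Col11a1 encodes a chain of type XI collagen, which nucleates fibrils in cartilage and other tissue. It read 5.44, 5.82, 5.60 and 5.61 in E46 controls, 5.67, 5.86, 5.53 and 5.62 at the labelled 1 and 5.06, 4.84, 4.91 and 4.94 at the labelled 100, where it neared the background. In A2/12 the controls were far higher, at 8.2, 7.95, 8.19 and 8.44, and the serotonin arrays read 5.72, 5.45, 5.32 and 5.46. The groups did not overlap in either line, and the changes were -0.68 ± 0.11 (adjusted p = 2.18e-05) and -2.71 ± 0.11 (adjusted p = 3.66e-14). Of the remaining fibrillar genes Col2a1, the cartilage collagen, changed by -0.38 ± 0.08 in E46 (adjusted p = 0.000359) and by -0.16 ± 0.08 in A2/12 (adjusted p = 0.0942), Col24a1 fell only slightly and was called in A2/12 (-0.27 ± 0.10, adjusted p = 0.0318), a call lost when any of 5 arrays was left out (adjusted p from 0.0507 to 0.0845), and Col11a2 and Col27a1 were called in neither line.

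**Figure D2:**
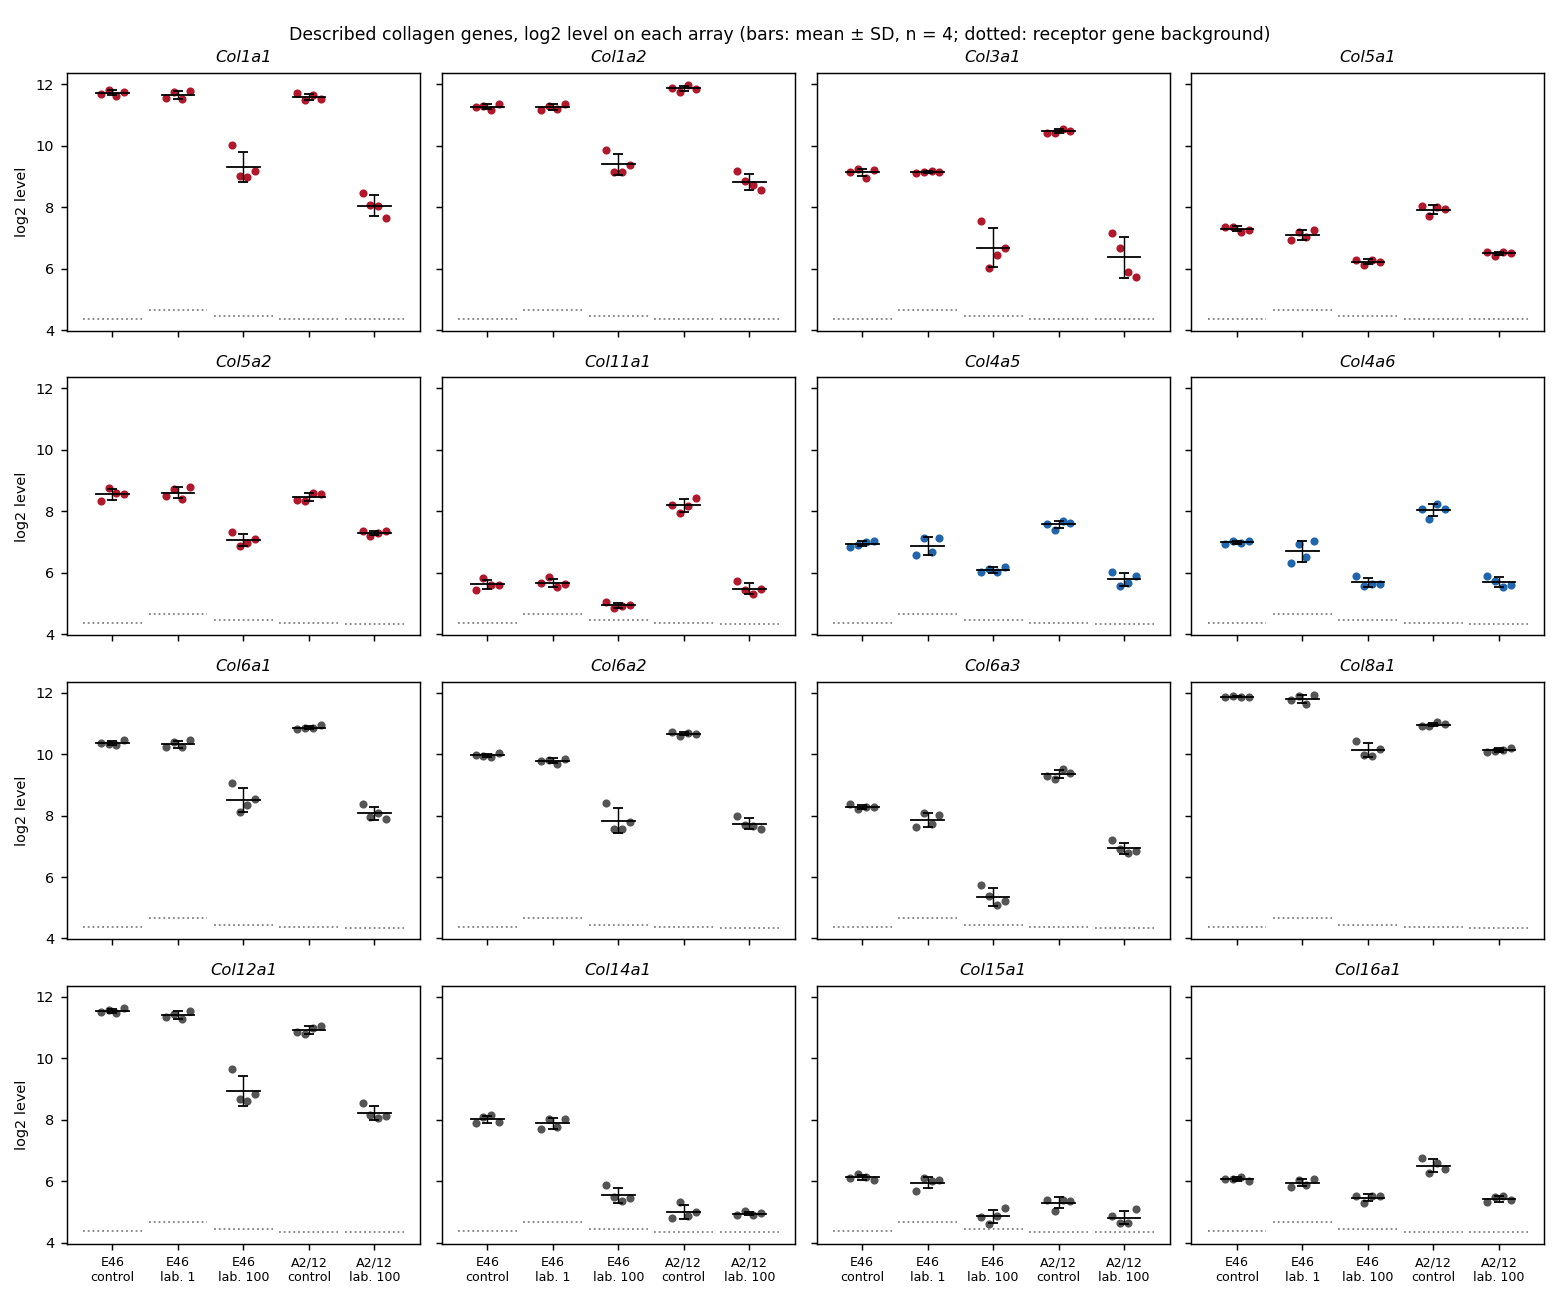
Log2 level of the 16 collagen genes described array by array, in the 5 groups. Points are arrays, bars are mean ± SD (n = 4), and the dotted line is the receptor gene background of that group. In the E46 labelled 100 group replicate 1, drawn first, is the highest point for genes such as Col1a1 (10.03 against 8.99 to 9.19), and Col14a1 is near the background in both A2/12 groups.

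Among the type IV chains Col4a1 and Col4a2, which make the common basement membrane heterotrimer, fell together by moderate amounts. Col4a1 went from 8.57, 8.63, 8.56 and 8.73 in E46 controls to 7.87, 7.65, 7.71 and 7.70 at the labelled 100, and Col4a2 from 8.32, 8.32, 8.16 and 8.34 to 7.42, 7.25, 7.34 and 7.35. Their changes were -0.89 ± 0.07 and -0.94 ± 0.09 in E46 (adjusted p = 1.86e-09 and 1.96e-08), and -0.71 ± 0.07 and -0.90 ± 0.09 in A2/12 (adjusted p = 2.64e-08 and 2.14e-08). The groups overlapped in neither line.

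The genes of this pair lie head to head, and their windows are shown because they overlap by 78 bases, read from opposite strands. That of Col4a1 is chr8:11312777-11313076 on the minus strand, with 1 CCAAT and 1 GGGCGG, and that of Col4a2 is chr8:11312555-11312854 on the plus strand, with 1 CCAAT and 3 GGGCGG, marked in capitals on either strand. The GGGCGG of Col4a1 lies in the shared bases and is the last of the 3 of Col4a2, read from the other strand.
Col4a1: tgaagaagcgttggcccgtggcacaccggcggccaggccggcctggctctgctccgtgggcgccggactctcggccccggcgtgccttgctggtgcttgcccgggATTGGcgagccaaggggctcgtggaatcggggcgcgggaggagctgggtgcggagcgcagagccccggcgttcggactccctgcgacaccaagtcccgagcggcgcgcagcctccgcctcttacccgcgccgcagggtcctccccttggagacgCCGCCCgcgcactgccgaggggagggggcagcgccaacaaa
Col4a2: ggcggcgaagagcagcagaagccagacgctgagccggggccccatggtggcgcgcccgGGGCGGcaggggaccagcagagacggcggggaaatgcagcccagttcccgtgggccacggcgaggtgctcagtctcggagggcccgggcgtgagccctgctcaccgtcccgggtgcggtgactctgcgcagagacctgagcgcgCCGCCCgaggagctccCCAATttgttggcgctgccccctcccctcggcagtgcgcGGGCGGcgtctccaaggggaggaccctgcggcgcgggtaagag

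Col4a5 and Col4a6, neighbours on chromosome X that encode further basement membrane chains, fell more in A2/12. Col4a5 read 6.84, 6.92, 6.99 and 7.04 in E46 controls, 6.58, 7.12, 6.69 and 7.12 at the labelled 1 and 6.03, 6.14, 6.01 and 6.19 at the labelled 100, and in A2/12 it went from 7.60, 7.39, 7.69 and 7.61 to 6.03, 5.57, 5.65 and 5.89. Its changes were -0.86 ± 0.12 in E46 and -1.79 ± 0.12 in A2/12 (adjusted p = 4.59e-06 and 5.42e-11). No array labelled 100 reached a control of its line.

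Col4a6 read 6.94, 7.04, 6.98 and 7.03 in E46 controls, 6.30, 6.94, 6.51 and 7.05 at the labelled 1 and 5.89, 5.55, 5.64 and 5.65 at the labelled 100. Its A2/12 levels went from 8.09, 7.77, 8.25 and 8.06 to 5.91, 5.73, 5.54 and 5.60. The groups labelled 100 lay apart from their controls, with changes of -1.31 ± 0.14 and -2.35 ± 0.14 (adjusted p = 8.13e-08 and 6.48e-12). At the labelled 1, replicates 1 and 3, which are among the 4 arrays of low upper quartile, were the low ones for both genes. Col4a3 and Col4a4, another neighbouring pair, known from the kidney filter, lay between 4.69 and 5.25 on the A2/12 and E46 arrays of control and labelled 100. They fell by 0.32 ± 0.08 and 0.27 ± 0.07 on the log2 scale in A2/12 (adjusted p = 0.00180 and 0.00434) and were not called in E46 (-0.06 ± 0.08 and 0.02 ± 0.07).

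Type VI collagen forms beaded filaments around cells, and its main chains are encoded by Col6a1, Col6a2 and Col6a3. Col6a1 read 10.35, 10.33, 10.30 and 10.46 in E46 controls, 10.25, 10.38, 10.22 and 10.45 at the labelled 1 and 9.05, 8.13, 8.34 and 8.53 at the labelled 100. Its A2/12 levels went from 10.82, 10.84, 10.86 and 10.94 to 8.37, 7.94, 8.10 and 7.88. It fell without overlap in both, by 1.85 ± 0.14 and 2.79 ± 0.14 on the log2 scale (adjusted p = 8.40e-10 and 7.37e-13).

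Col6a2, the neighbour of Col6a1 on chromosome 10, read 9.97, 9.95, 9.91 and 10.04 in E46 controls, 9.79, 9.81, 9.67 and 9.85 at the labelled 1 and 8.42, 7.58, 7.55 and 7.80 at the labelled 100. In A2/12 it went from 10.73, 10.60, 10.67 and 10.67 to 7.99, 7.70, 7.66 and 7.58. The changes at the labelled 100 were -2.13 ± 0.13 (adjusted p = 6.90e-11) and -2.94 ± 0.13 (adjusted p = 2.21e-13).

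Col6a3, the long chain of the filament, read 8.37, 8.2, 8.27 and 8.27 in E46 controls, 7.63, 8.08, 7.73 and 8.01 at the labelled 1 and 5.74, 5.37, 5.09 and 5.21 at the labelled 100. Its change of -2.93 ± 0.13 (7.60-fold lower, adjusted p = 7.88e-13) was the lowest of the 42 collagens in E46. In A2/12 it went from 9.30, 9.19, 9.50 and 9.38 to 7.20, 6.90, 6.79 and 6.83, a change of -2.41 ± 0.13 (adjusted p = 1.69e-12). The alternative chains Col6a4, Col6a5 and Col6a6 were called in neither line, and the first pair lay within the background in every group.

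Among the fibril-associated collagens, which sit on the surface of fibres, Col12a1, Col14a1 and Col16a1 changed. Col12a1 read 11.50, 11.56, 11.49 and 11.64 in E46 controls, 11.34, 11.45, 11.28 and 11.55 at the labelled 1 and 9.64, 8.67, 8.61 and 8.84 at the labelled 100, and in A2/12 it went from 10.86, 10.79, 11.00 and 11.06 to 8.56, 8.14, 8.05 and 8.14. The changes were -2.61 ± 0.16 (adjusted p = 5.69e-11) and -2.71 ± 0.16 (adjusted p = 1.05e-11). Replicate 1 of the labelled 100 was the highest of its group in both lines.

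Col14a1, which binds type I fibres, was called in E46 and not in A2/12. It read 7.89, 8.08, 8.15 and 7.92 in E46 controls, 7.70, 8.04, 7.76 and 8.03 at the labelled 1 and 5.89, 5.47, 5.34 and 5.46 at the labelled 100, a change of -2.47 ± 0.12 (5.53-fold lower, adjusted p = 2.66e-12). In A2/12 it was near the background in both groups, at 4.82, 5.32, 4.88 and 5.01 in controls and 4.90, 5.02, 4.91 and 4.97 with serotonin. That change of -0.06 ± 0.12 was not called (adjusted p = 0.767), and a fall from so low a level may not be seen.

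Col16a1 read 6.07, 6.08, 6.14 and 6.01 in E46 controls, 5.83, 6.02, 5.88 and 6.06 at the labelled 1 and 5.52, 5.28, 5.51 and 5.52 at the labelled 100. The A2/12 levels went from 6.75, 6.26, 6.58 and 6.41 to 5.32, 5.49, 5.53 and 5.40. It fell in both lines without overlap, by 0.62 ± 0.09 and 1.07 ± 0.09 on the log2 scale (adjusted p = 1.25e-05 and 3.66e-09). The other fibril-associated genes, Col9a1, Col9a2, Col19a1, Col20a1 and Col22a1, were called in neither line.

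Col8a1 encodes a hexagonal network collagen of vessel walls and the cornea. It read 11.87, 11.88, 11.85 and 11.86 in E46 controls, 11.75, 11.88, 11.65 and 11.91 at the labelled 1 and 10.44, 9.98, 9.95 and 10.17 at the labelled 100, a change of -1.73 ± 0.09 (adjusted p = 4.73e-12). In A2/12 it went from 10.93, 10.91, 11.03 and 10.98 to 10.08, 10.10, 10.15 and 10.21, a change of -0.83 ± 0.09 (adjusted p = 7.71e-08). The groups lay apart in both lines. Its partner chain Col8a2 changed by -0.45 ± 0.17 and -0.71 ± 0.17 (adjusted p = 0.0372 and 0.00116) with overlapping groups, and the E46 call was lost when any of 5 arrays was left out (adjusted p from 0.0531 to 0.148). Col10a1, the collagen of hypertrophic cartilage, fell in A2/12 (-0.57 ± 0.16, adjusted p = 0.00611) and did not pass in E46 (-0.04 ± 0.16).

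Both multiplexins, basement membrane collagens whose ends can be released as endostatin-like fragments, fell in both lines. Col15a1 read 6.10, 6.24, 6.13 and 6.05 in E46 controls, 5.69, 6.10, 6.01 and 6.03 at the labelled 1 and 4.84, 4.62, 4.86 and 5.11 at the labelled 100, and in A2/12 it went from 5.38, 5.03, 5.40 and 5.36 to 4.87, 4.65, 4.62 and 5.09. The E46 groups lay apart, with -1.27 ± 0.12 (adjusted p = 1.98e-08). The A2/12 groups overlapped through control replicate 2, with -0.49 ± 0.12 (adjusted p = 0.00174). Col18a1 changed by -0.66 ± 0.09 and -0.36 ± 0.09 (adjusted p = 2.11e-06 and 0.00122).

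The 4 transmembrane collagens, Col13a1, Col17a1, Col23a1 and Col25a1, and the unclassed Col26a1 and Col28a1 were called in neither line. The changes of the 16 genes without a call ran from -0.17 ± 0.12 for Col6a6 to 0.13 ± 0.09 for Col9a2 in E46 and from -0.13 ± 0.08 for Col25a1 to 0.25 ± 0.13 for Col20a1 in A2/12. Col20a1 read 6.88 ± 0.08 in E46 controls and 7.08 ± 0.16 in A2/12 controls, clear of the background. A second probe set of Col20a1, dimmer than the one used, rose in A2/12 (0.58 ± 0.16, adjusted p = 0.00441).

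Over the 16 genes described array by array, the median deviation from the controls of the line was -1.35 on replicate 1 of E46 labelled 100 and -2.0, -1.97 and -1.76 on the other three, and -2.14, -2.38, -2.53 and -2.48 on the A2/12 serotonin arrays. By this median replicate 1 was the least shifted array of both serotonin groups, but not for every gene: single genes ran from -3.78 to 0.01 on A2/12 replicate 2, and replicate 1 was not the highest of its group for genes such as Col4a5 and Col15a1 in E46 and was the lowest for Col8a1 and Col16a1 in A2/12. Without that E46 array, as without any other single array, 20 to 22 collagens were called in E46, and 23 to 25 were called in A2/12.

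The labelled 1 in E46 gave no called collagen in limma (0.0106% of all genes, or 2 genes, were called). Leaving out replicate 2 of that group gave 284 called genes, 163 of them lower, leaving out any other of the 8 arrays gave 1 to 4, and no collagen was called in any of these. At an unadjusted p below 0.05 there were 5 of 42, against 15.9% of all genes: Col6a3, Col20a1, Col4a6 and Col5a1 on the lower side and Col28a1 on the higher. For each gene on the lower side, replicates 1 and 3 of the labelled 1, both of low upper quartile, were the lowest of their group. Over the 16 genes described array by array, the median deviation from controls was -0.19 and -0.22 on them, and 0.01 and 0.02 on replicates 2 and 4. On E46 control replicate 1, whose upper quartile was as low (8.09), it was -0.02. On control replicate 2 of the other line (upper quartile 8.16) it was -0.13. Both are deviations from the mean of the controls of the line, the array itself included. The part of the upper quartile in these levels was not tested. Col6a3, at 7.86 ± 0.22 against 8.28 ± 0.07 in controls, changed by -0.42 ± 0.13 (adjusted p = 0.203), and every array labelled 1 lay below every control. The same lack of overlap held for Col6a2 on the lower side (-0.19 ± 0.13, adjusted p = 0.493) and Col28a1 on the higher side (0.22 ± 0.09, adjusted p = 0.269). Among all genes 4.76% and 1.64% lay apart in these directions. The median change over the 42 was -0.07, and -0.04 over all genes. For Col1a1 the 95% confidence interval of the change at the labelled 1 was -0.45 to 0.29, so that a fall of the size seen at the labelled 100 lay outside it.

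Set directly against the labelled 1, the labelled 100 had 21 collagens lower and none higher (17.8% of all genes lower, 23.6% higher and 41.4% in either direction). Within the array numbers 5, 7 and 9, again with groups of 1 or 2 arrays, these were 17, 17 and 11, where 6.63%, 11.6% and 3.95% of all genes were called lower. The differences of the genes already described were close in size to those against control, with -2.34 ± 0.18 for Col1a1 and -2.51 ± 0.13 for Col6a3, since the labelled 1 arrays overlapped or neared the controls. If the second label holds, all of these falls belong to the dose of 1 and none to 100: the count for E46 at 100 was then 0 and that at 1 was 22.

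The difference between the responses of both lines was tested as an interaction, E46 minus A2/12, and 15 of 42 collagens passed (22% of all genes). The fall was larger in A2/12 for 11 (11.1% of all genes in that direction): Col1a1, Col1a2, Col3a1, Col5a1, Col11a1, Col4a4, Col4a5, Col4a6, Col6a1, Col6a2 and Col16a1. It was larger in E46 for 4 (10.9%): Col6a3, Col8a1, Col14a1 and Col15a1. The widest gaps were 2.03 ± 0.15 for Col11a1 (adjusted p = 3.21e-09) and -2.41 ± 0.17 for Col14a1 (adjusted p = 1.54e-09), the members with the widest gaps between the control levels of the lines as well. Col11a1 started at 5.62 in E46 controls, over a background of 4.38, and Col15a1 at 5.29 in A2/12 controls, over 4.36. As for Col14a1 in A2/12, a fall as large as in the other line may not be seen from such levels. The gaps between the responses compare the lines at the same dose only if the titles hold. With the second label the E46 change at 100 was -0.13 ± 0.12 for Col14a1, against -0.06 ± 0.12 in A2/12. For Col11a1 it was then 0.05 ± 0.11, against -2.71 ± 0.11.

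Type I and III collagen had the next widest gaps, at 1.13 ± 0.25 for Col1a1, 1.16 ± 0.19 for Col1a2 and 1.65 ± 0.37 for Col3a1 (adjusted p = 0.00202, 8.64e-05 and 0.00210). The type VI chains split: Col6a1 and Col6a2 fell further in A2/12, by 0.95 ± 0.20 and 0.81 ± 0.19 (adjusted p = 0.00106 and 0.00300), and Col6a3 fell further in E46, at -0.51 ± 0.18 (adjusted p = 0.0444). The last call was lost in 16 of 27 alternatives (adjusted p from 0.0523 to 0.105), the replicate number as a block among them. The call of Col5a1 (0.35 ± 0.12, adjusted p = 0.0328) was lost in 12 (adjusted p from 0.0527 to 0.107) and that of Col4a4 (0.29 ± 0.10, adjusted p = 0.0493) in 16 (adjusted p from 0.0512 to 0.116). For Col12a1 the gap was 0.10 ± 0.23 with a 95% confidence interval of -0.38 to 0.57, and for Col4a1 it was -0.18 ± 0.10 with an interval of -0.39 to 0.03. Within the array numbers 5, 7 and 9 alone, with groups of 1 or 2 arrays, 5, 3 and 1 collagens passed, where 4.71%, 8.46% and 0.388% of all genes did.

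**Figure D3:**
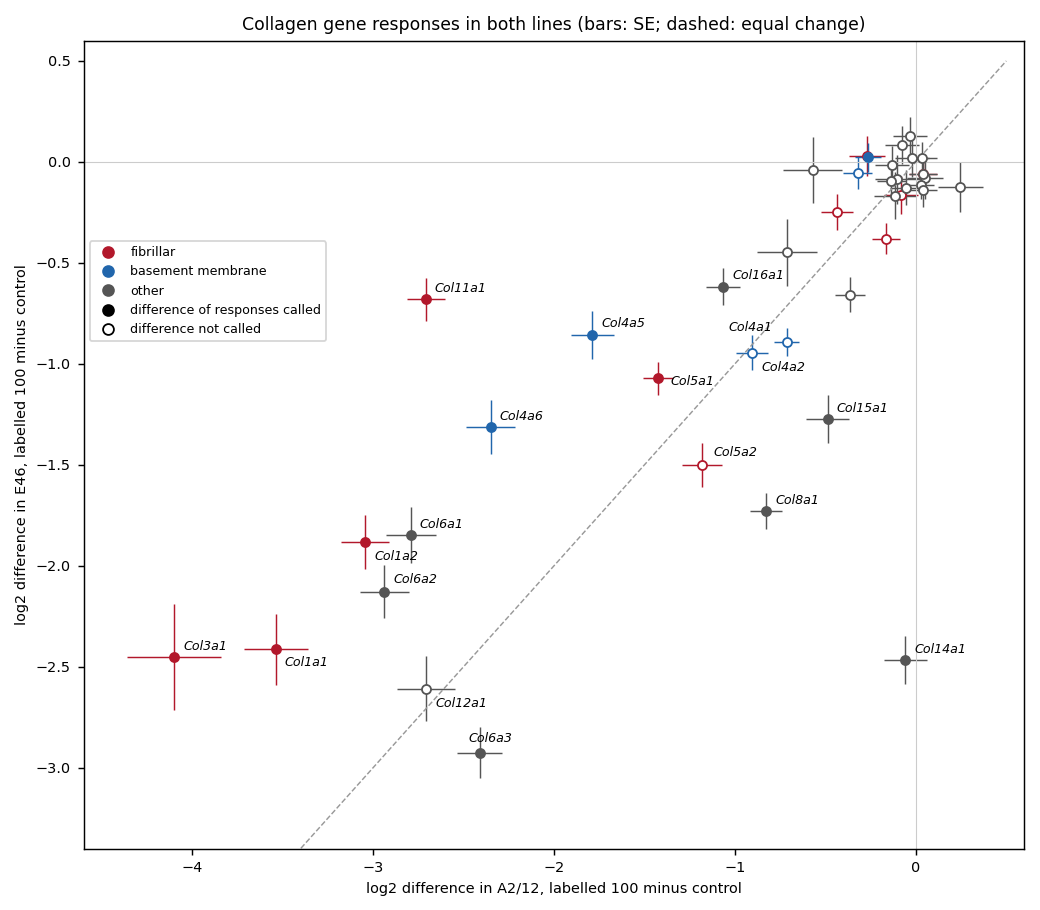
Change at the labelled 100 in E46 (vertical) against that in A2/12 (horizontal) for the 42 collagen genes, on the log2 scale. Bars are SE, the dashed line marks equal change, and filled points are the 15 genes whose responses differed at an adjusted p below 0.05. Col14a1 stands at -2.47 and -0.06, and Col11a1 at -0.68 and -2.71.

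The controls of the lines differed in 21 collagens (39.1% of all genes), with 15 lower in E46 (18.1%) and 6 higher (21.1%). Lower in E46 were Col11a1 (-2.57 ± 0.11, adjusted p = 2.73e-14), Col3a1 (-1.34 ± 0.26, adjusted p = 0.000262), Col6a3 (-1.07 ± 0.13, adjusted p = 5.65e-07) and Col4a6 (-1.05 ± 0.14, adjusted p = 1.92e-06), and 11 others by less than 2-fold, where 4.44% of all genes were at least 2-fold lower. Higher in E46 were Col14a1 (3.00 ± 0.12, adjusted p = 1.36e-14), Col8a1 (0.90 ± 0.09, adjusted p = 2.99e-08), Col15a1, Col12a1, Col25a1 and Col2a1. Col1a1 did not pass (0.13 ± 0.18, adjusted p = 0.629). Within the array numbers 5, 7 and 9 the counts were 17, 5 and 3 (20.1%, 19.5% and 6.87% of all genes), from 2, 1 and 1 control arrays per line. The calls of Col4a3, Col8a2 and Col10a1, whose groups overlapped, were lost in 12, 3 and 7 of 19 alternatives. These controls also enter the comparisons above, so the difference in control level and the difference in response of a gene are not independent.

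Several members lie next to each other with no other coding gene between them in the RefSeq annotation. Both genes fell in both lines in 4 such pairs: Col3a1 with Col5a2, Col4a1 with Col4a2, Col4a5 with Col4a6 and Col6a1 with Col6a2. Col4a3 and Col4a4 both fell in A2/12, and the pairs Col6a4 with Col6a5, Col6a5 with Col6a6 and Col9a1 with Col19a1 were called in neither line. Of all 42 collagens 20 fell in both lines, as did 2411 of all 18820 genes. Neighbouring pairs of other genes were not counted, so these pairs are a description only.

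In the promoter windows, GGGCGG on either strand stood in 13 of 17 windows of genes lower in both lines (76.5%) and in 8 of 14 of genes called in neither (57.1%), against 35.9% of all 27025 windows. CCAAT stood in 8 of 17 (47.1%) and 3 of 14 (21.4%), against 37.9% of all windows. TATAAA stood in 1 of 17 (5.88%) and 3 of 14 (21.4%), against 14.2%. These letters do not overlap each other, and a match is a description of the window and not of a site in use. The windows of Col4a1 and Col4a2 share 1 GGGCGG, and both windows enter the counts. Windows of 8 members were not used here, those of Col1a1, Col5a2, Col12a1 and Col14a1 among them.

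The proteins that make, trim, link, break down and bind collagen were read from 4 lists of other genes, whose counts stand beside 19.3% of all genes called lower and 20.3% higher in E46, and 21.1% and 24.8% in A2/12. Of 22 genes for the modification and folding of collagen in the endoplasmic reticulum, 14 fell (63.6%) and 1 rose in E46, and 16 fell (72.7%) and 4 rose in A2/12. P4ha3, a subunit of the enzyme that makes hydroxyproline, changed by -2.58 ± 0.15 and -2.37 ± 0.15 (adjusted p = 1.77e-11 and 1.68e-11). Plod2, which hydroxylates lysines for crosslinks, changed by -1.02 ± 0.08 and -1.47 ± 0.08 (adjusted p = 1.52e-09 and 2.40e-12). Sec24d, a part of the coat of vesicles that carry procollagen, changed by -0.62 ± 0.07 and -1.60 ± 0.07, and Creb3l1, a transcription factor that acts on collagen genes in bone, by -1.50 ± 0.09 and -1.17 ± 0.09. Ctage5, whose protein helps load procollagen into vesicles, was the one gene of the list to rise in both lines (1.15 ± 0.10 and 1.04 ± 0.10) and was chosen for naming after its values were seen.

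Of 11 genes for the processing and crosslinking of procollagen, 8 fell and 1 rose in E46, and 8 fell and none rose in A2/12, so 72.7% fell in each line. Pcolce and Pcolce2, enhancers of the enzyme that cuts off the propeptide, changed by -1.62 ± 0.14 and -0.77 ± 0.07 in E46 and by -2.73 ± 0.14 and -1.18 ± 0.07 in A2/12. The crosslinking oxidases Loxl1 and Loxl2 changed by -1.40 ± 0.09 and -1.14 ± 0.14 in E46 and by -1.48 ± 0.09 and -2.60 ± 0.14 in A2/12. The gene that rose in E46 was Loxl4 (0.46 ± 0.13, adjusted p = 0.00675), named after its value was seen.

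Of 16 genes of collagen breakdown, 8 fell (50%) and 1 rose in E46, and 10 fell (62.5%) and 3 rose in A2/12. Mmp16, a membrane protease, changed by -0.82 ± 0.08 and -2.28 ± 0.08, Mrc2, a receptor that takes up collagen fragments, by -0.88 ± 0.07 and -1.69 ± 0.07, and the protease inhibitor Timp2 by -0.79 ± 0.07 and -1.26 ± 0.07. Mmp13, a collagenase, went the other way in A2/12, from 7.98 to 10.83 (2.85 ± 0.16, adjusted p = 3.46e-12), and lay below the background level in E46 (0.12 ± 0.16, adjusted p = 0.623).

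Of 9 collagen receptor genes, 6 fell (66.7%) and 1 rose in each line, and the share that rose lay under that of all genes. Itga1, an integrin chain that binds type IV collagen, changed by -1.56 ± 0.13 and -1.57 ± 0.13, and Ddr1, a receptor kinase for collagen, by -0.71 ± 0.09 and -1.05 ± 0.09. Itga2 rose in A2/12 (1.35 ± 0.11, adjusted p = 8.30e-10) and did not pass in E46 (0.10 ± 0.11). The gene that rose in E46 was Ddr2, a receptor for fibrillar collagen (0.42 ± 0.08), which fell in A2/12 (-0.36 ± 0.08) and was named after its values were seen. At the labelled 1 no gene of these 4 lists was called in limma, with 3, 0, 1 and 1 at an unadjusted p below 0.05.

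**Figure D4:**
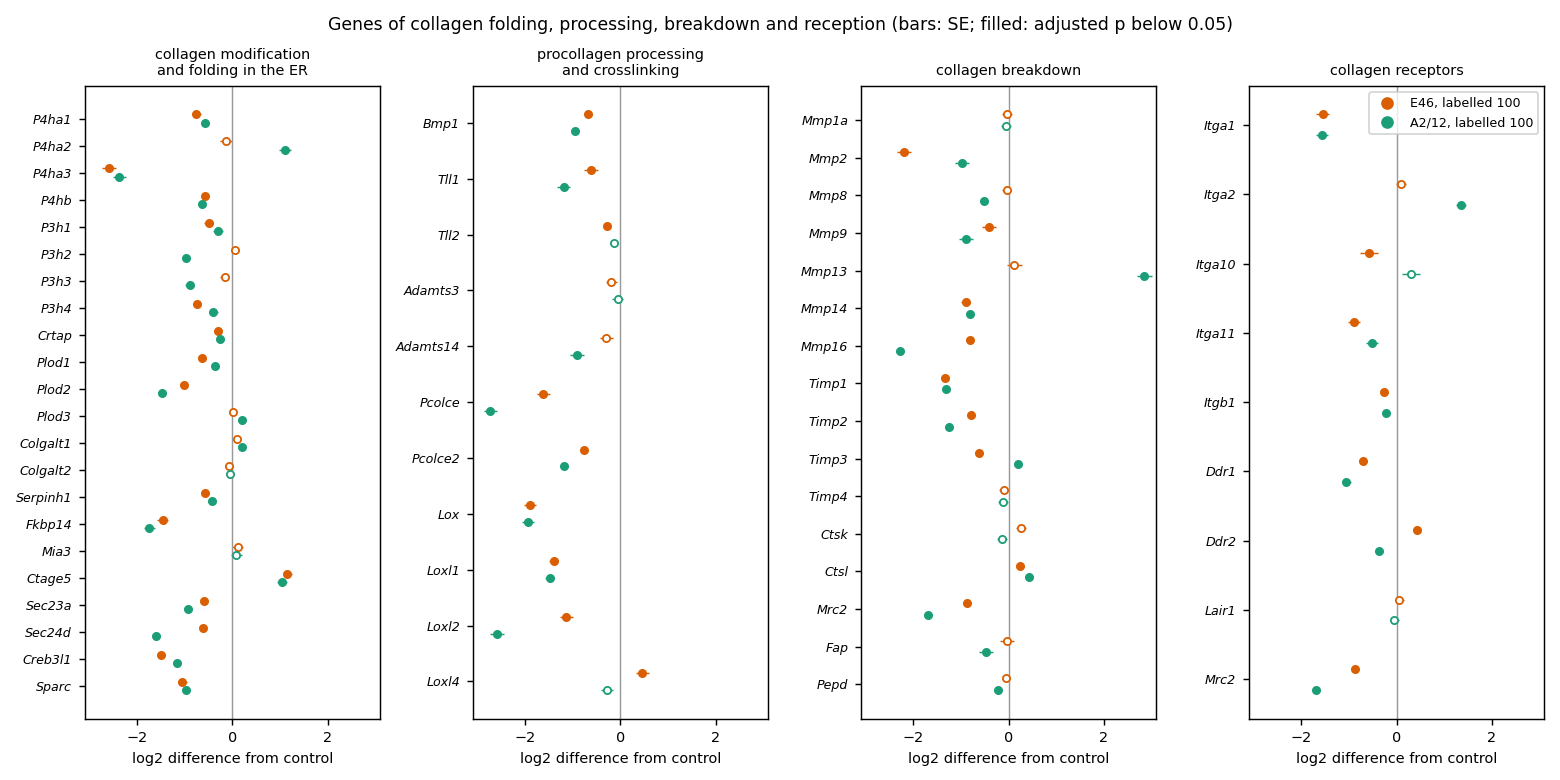
Change at the labelled 100 of the measured genes of 4 lists around collagen, on the log2 scale, in E46 and A2/12. Points are differences of group means (4 arrays each), bars are SE, and filled points passed an adjusted p below 0.05. Most filled points lie left of 0, with Mmp13 (2.85), Itga2 (1.35) and P4ha2 (1.10) on the right in A2/12 and Ctage5 in both lines.

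Markers of other cell types were read beside these results, since the labels call both lines neuronal. The counts of called markers stand beside 19.3% of all genes called lower and 20.3% higher in E46, and 21.1% and 24.8% in A2/12. Of 14 neuron markers 6 lay above background in the controls of each line, and Rbfox3, Snap25, Nefl, Nefm, Elavl4, Slc17a6, Slc32a1 and Gad1 did not. Of the neuron markers 2 of 14 fell in E46 (14.3%, under the share of all genes) and 4 of 14 in A2/12 (28.6%), and none rose. Markers within the background have little room to fall, so these shares say little of the markers above it. Of all genes with a control level below 6, 7.72% were called lower in E46 and 7.8% in A2/12. At or above 6 these shares were 30% and 33.4%. The median change of the 14 neuron markers was -0.07 in each line, and the lowest single change was -1.79 in E46 and -2.16 in A2/12. Their summed log2 level went from 67.2 to 68.2 on controls to 64.9 to 66.1 at the labelled 100 in E46, and from 71.1 to 73.2 to 66.4 to 67.3 in A2/12. Of 14 fibroblast and mesenchyme markers 11 lay above it in every group, among them Pdgfrb (12.26 in E46 and 12.53 in A2/12 controls), and Lum, Fap and Tcf21 did not. The summed log2 level of that list was 120 to 122 on E46 controls, 121 to 122 at the labelled 1 and 108 to 113 at the labelled 100. In A2/12 the sum was 127 to 128 on controls and 113 to 116 with serotonin. Of these 14 markers 9 fell in E46, and 10 fell and 1 rose in A2/12. Of 8 mural and smooth muscle markers 6 lay above background in E46 and 7 in A2/12 controls, and their sum went from 52.5 to 53.6 on controls to 46.2 to 47.7 in E46 and from 54.7 to 55.8 to 52.6 to 53.6 in A2/12. Of these 8, 5 fell in E46, and 4 fell and 2 rose in A2/12. The part of these cell type genes in the fall of the collagens was not tested.

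Lists of other brain cells were mixed. Their counts stand beside the same shares of all genes, 19.3% lower and 20.3% higher in E46, and 21.1% and 24.8% in A2/12. Of 6 astrocyte markers Gfap and Aqp4 lay within the background in the controls of both lines, while 4 lay above it in E46 controls and 2 in A2/12 controls. In E46 4 of these 6 fell, 2 of them by at least 2-fold, and their sum went from 34.1 to 34.7 on controls to 29.6 to 30.5. In A2/12 3 fell, and the sum went from 28.5 to 28.7 to 25.6 to 26.8. Of 7 endothelium markers 3 lay above background in the controls of each line, and Pecam1, Cdh5, Kdr and Esam did not. In E46 2 fell (28.6%) and 1 rose, with a sum of 35.0 to 36.3 on controls and 32.5 to 33.2 at the labelled 100. The median change of this list in E46 was 0.04, and its lowest single change was -2.16. In A2/12 2 fell and 3 rose, with sums of 34.4 to 36.0 and 35.0 to 36.8 and a median change of 0.16. All 3 oligodendrocyte markers, Mog, Mag and Olig1, lay within the background in every group. All 4 tanycyte and ependyma markers, with Vim of the fibroblast list among them, lay above background in the controls of both lines. None of these was called in E46, with sums of 26.8 to 27.9 on controls and 27.0 to 27.3 at the labelled 100. In A2/12 1 fell (25%), with sums of 26.8 to 27.3 and 26.4 to 27.1. A list of 4 epithelium markers was read as well, and 3 lay above background in the controls of each line, without Epcam. In E46 1 of these 4 fell (25%), with sums of 19.1 to 21.1 on controls and 17.8 to 18.8 at the labelled 100. In A2/12 1 fell and 1 rose, with sums of 19.4 to 20.4 and 19.1 to 19.9. The part of the astrocyte and endothelium genes in the collagen result was not tested either. The summed level of 7 microglia and macrophage markers was 26.7 to 28.2 on E46 controls and 27.1 to 34.0 on A2/12 controls, where replicate 4 read 6.50 for Csf1r. Without that array and E46 control replicate 3, an alternative chosen after seeing the data, 21 collagens were called in E46, 24 in A2/12, 12 in the difference of responses and 18 between the controls.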

How the data were processed

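The deposited log2 levels are the authors' RMA output for scanned Affymetrix gene arrays, per the submitters' processing notes; no version was found there. RMA subtracts background, brings the arrays to 1 distribution and joins the probes of each set into 1 value. No detection calls were used, and precision is limited by how many arrays there are.

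Probe sets were named through the annotation table of the array, matched by Entrez ID for 21185 probe sets. Of 35556 probe sets, 21218 with 1 symbol were kept; of several for a gene the brightest by its mean on the 20 arrays was taken, giving 18820 genes and 42 collagens from 46 probe sets. All 20 arrays entered 1 limma fit of group means (limma 3.58.1 under R 4.3.3, lmFit and eBayes, 15 residual degrees of freedom, Benjamini-Hochberg adjustment), and 6 comparisons were read from it, all two-sided. Groups and doses follow the titles. The code was tested on simulated data. Promoter windows are those of RefSeq. Python 3.11.15 with matplotlib 3.10.9 drew the figures.

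Described array by array were collagens called in either line at the labelled 100, or between controls, with groups that did not overlap and a log2 difference of at least 1. From each of 4 pathway lists up to 4 genes with the smallest adjusted p are named. Members, lists and tests were chosen with earlier results of these data known. Alternatives were a fit per line, trended eBayes, array weights, the replicate or array number as a block, each array number alone, other normalizations, filters and probe set choices, the second dose label and leaving out arrays.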

Additional observations from a re-analysis of the deposited data

Results flagged for a closer look

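Of 80 groups of 4 arrays over the 16 genes described array by array, 2 held an array that stood apart by Dixon's test at 95% (2.5%), where chance gives about 1 in 20. Col15a1 read 5.03 on A2/12 control replicate 2, against 5.36 on the next array of its group. Col16a1 read 5.28 on E46 labelled 100 replicate 2, against 5.51 on the next.

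The responses of both lines to the labelled 100 differed for 15 collagens by the interaction test (E46 minus A2/12, log2 scale, limma adjusted p below 0.05). A positive value means a larger fall in A2/12, and these were Col11a1 (2.03), Col3a1 (1.65), Col1a2 (1.16), Col1a1 (1.13), Col4a6 (1.04), Col6a1 (0.95), Col4a5 (0.93), Col6a2 (0.81), Col16a1 (0.45), Col5a1 (0.35) and Col4a4 (0.29). A negative value means a larger fall in E46, and these were Col14a1 (-2.41), Col8a1 (-0.90), Col15a1 (-0.79) and Col6a3 (-0.51). Col11a1 in E46, and Col14a1 and Col15a1 in A2/12, started at low levels, from which a larger fall may not be seen.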

How the results depend on the processing

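The replicate number as a block gave 22, 0, 21, 24, 14 and 21 called collagens in E46 at the labelled 100 and 1, the labelled 100 against 1, A2/12, the difference of responses and the controls, against 22, 0, 21, 24, 15 and 21 without it; the numbers did not pair the arrays, since arrays of the same number had a mean correlation of 0.0104 in their deviations from group means (from -0.55 to 0.406). Leaving out 1 array at a time gave 20 to 22, 0 to 0, 20 to 23, 23 to 25, 12 to 14 and 19 to 21.

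Within array number 9 alone the counts fell to 11 in E46, 11 against the labelled 1 and 14 in A2/12. The difference of responses gave 5, 3 and 1 within numbers 5, 7 and 9, and the controls 5 and 3 within 7 and 9. These fits hold 6 or 7 arrays with 1 or 2 residual degrees of freedom and groups of 1 or 2 arrays, so a single array was assumed to vary like the other groups. With the doses of the second label, E46 gave 0 at 100 and 22 at 1. The changes of Col11a1, Col3a1 and Col5a2 in E46 at 100 were then 0.051, 0.013 and 0.045 and those of Plod2, Loxl4 and Ddr2 0.032, -0.083 and -0.13, and the differences of response of Col15a1, Col6a3 and Col8a1 were 0.31, 1.99 and 0.76, since this setting exchanges both E46 groups. In the same setting 34 further changes and differences of response kept their sign and lost their call, and 10 kept both. Between controls Col8a2 read 0.35 within number 7, and the cause was not tested. Outside the dose setting no other of 82 called changes of collagens turned its sign. Outside that setting and the array-number settings 83 values lost their call, all of them for Col4a3, Col4a4, Col5a1, Col5a3, Col6a3, Col8a2, Col10a1 and Col24a1. Low signal over background limits the dim members.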
